A study of Mus musculus with 12 samples.

Results

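The transcripts described here are those of 10 genes, the glutathione transferases Gsta1, Gsta2, Gsta3, Gsta4, Gstm1, Gstm2, Gstm3, Gsto1 and Gstp1 and the quinone reductase Nqo1. They were taken by gene symbol from 31618 genes listed for each female library and 31669 for each male library, and all 10 counted as measured in both sexes. Earlier results of the same data had shown how their values differ between uteri, and the members were selected on those log2 differences between uteri, so their levels are given as a description and no test was made. RNA sequencing was done on 12 libraries from adult CD1/129 mice aged 3 to 7 months, each library made from tissue of 3 animals pooled, with the females taken in diestrus. The uterus and the vas deferens were each sampled in wild type (WT) and in 4 mutants. The mutants were Hoxa9,10,11-/- (Hoxa-null, or single Hoxa-null), Hoxd9,10,11-/- (Hoxd-null, or single Hoxd-null), Hoxa9,10,11-/-d9,10,11+/- (compound Hoxa-null) and Hoxa9,10,11+/-d9,10,11-/- (compound Hoxd-null). The single and the compound mutant of a cluster are called its pair, and values of a pair are given with the single mutant first. The WT oviduct and the WT caudal epididymis completed the female and male sets. Hox9 to Hox11 paralogues encode transcription factors that give the segments of the reproductive tract their identity, and the mutations are present in every cell, so an effect within the tract cannot be told apart from one that arises elsewhere in the animal. With 1 pooled library per group there is no replicate error, and "at least 2-fold" describes 2 libraries and not the conditions.

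Glutathione transferases join the tripeptide glutathione to electrophilic compounds, which makes them more soluble and easier to export from the cell. The cytosolic enzymes fall into classes that include alpha (Gsta), mu (Gstm), omega (Gsto) and pi (Gstp). Nqo1 reduces quinones by transferring a pair of electrons at once and so avoids reactive semiquinones. Many of these genes are induced by the transcription factor Nrf2, encoded by Nfe2l2, which Keap1 holds in check and which binds antioxidant response elements (AREs) in DNA. In the female and male tracts such enzymes are known from surface and glandular epithelia, where they protect against oxidants, steroid metabolites and foreign compounds.

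Several members are near copies of each other, and this bears on every value of theirs. In the GENCODE M21 transcripts, 90.5% of the 905 different 50-base words of Gsta1 also occur in transcripts of another gene, on either strand. Gm3776 holds 75.7% of the Gsta1 words, Gsta2 46.6% and Gm10639 31.3%. For Gsta2 the shared part is 49.8% of 1171 words, for Gstp1 33.7%, all of it also found in its neighbour Gstp2, for Gstm3 28.8%, for Gstm1 18.9% and for Gstm2 5.65%. Gsta3 shares 0.273% of its words, and Gsta4, Gsto1 and Nqo1 share 0. Reads that fall in shared words can be counted for either gene, and how the counting treated them is not given in the sources used here. The first 60 coding bases show this for the alpha class. Bases that differ from Gsta1 are in capitals.
Gsta1: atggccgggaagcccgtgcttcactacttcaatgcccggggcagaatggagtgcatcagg
Gsta2: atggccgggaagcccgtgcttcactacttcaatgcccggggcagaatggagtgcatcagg
Gsta3: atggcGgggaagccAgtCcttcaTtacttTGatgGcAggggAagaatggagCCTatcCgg
Gsta4: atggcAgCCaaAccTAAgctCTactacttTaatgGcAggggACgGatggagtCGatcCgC
Gsta2 differs from Gsta1 at 0 of these 60 bases, Gsta3 at 13 and Gsta4 at 19. Over the whole longest open reading frame Gsta1 and Gsta2 are 97.9% identical, with a run of 196 identical bases, while Gsta1 and Gsta3 are 75.5% identical with no run longer than 38. The same stretch of the mu class has bases that differ from Gstm1 in capitals.
Gstm1: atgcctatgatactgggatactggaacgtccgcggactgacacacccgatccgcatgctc
Gstm2: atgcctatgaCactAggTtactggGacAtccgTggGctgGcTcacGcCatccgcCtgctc
Gstm3: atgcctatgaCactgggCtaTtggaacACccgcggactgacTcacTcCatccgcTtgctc
Here Gstm2 differs from Gstm1 at 12 and Gstm3 at 9 of 60 bases, and Gstm1 and Gstm3 share a run of 112 identical bases in the open reading frame.

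**Figure D1:**
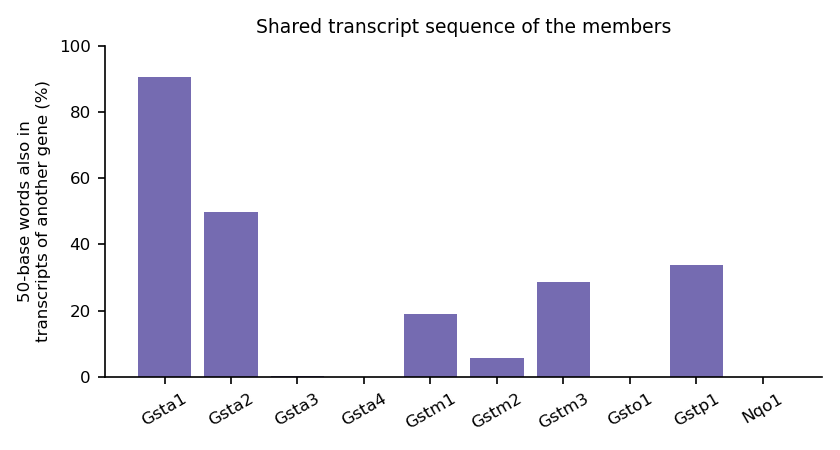
Bars give, for each of the 10 members, the percent of different 50-base words of its GENCODE M21 transcripts that also occur in transcripts of another gene, on a linear axis from 0 to 100%. Gsta1 stands highest at 90.5% and Gsta2 next at 49.8%, while Gsta4, Gsto1 and Nqo1 stand at 0.

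The promoters of Gsta1 and Gsta2 are alike as well, and they are shown because the values of these genes went together. Each window runs from 250 bases before to 50 after the start site in RefSeq (GRCm38.p6), Gsta1 at chr9:78230419-78230718 on the plus strand and Gsta2 at chr9:78347096-78347395 on the minus strand. Capitals mark bases with no identical partner when the windows are aligned.
Gsta1 promoter: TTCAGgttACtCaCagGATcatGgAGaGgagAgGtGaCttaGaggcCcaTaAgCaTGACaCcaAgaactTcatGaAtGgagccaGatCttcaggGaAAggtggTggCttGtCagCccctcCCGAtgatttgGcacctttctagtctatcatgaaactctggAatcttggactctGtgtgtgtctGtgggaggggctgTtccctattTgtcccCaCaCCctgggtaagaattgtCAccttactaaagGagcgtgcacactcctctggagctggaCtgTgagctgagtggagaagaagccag
Gsta2 promoter: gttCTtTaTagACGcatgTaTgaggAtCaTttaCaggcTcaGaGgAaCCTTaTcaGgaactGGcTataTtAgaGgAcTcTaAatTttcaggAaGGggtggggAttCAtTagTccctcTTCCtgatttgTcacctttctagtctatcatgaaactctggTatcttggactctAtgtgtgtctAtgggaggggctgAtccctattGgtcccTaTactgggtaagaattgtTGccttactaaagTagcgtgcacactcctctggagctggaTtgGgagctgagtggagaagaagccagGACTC
The alignment holds 236 identical bases in 302 columns (78.1%), and most of the capitals lie in the distal part. The core of the ARE, TGACNNNGC on either strand, was searched in the windows of the 9 members that have one. It occurred in the window of Gsta3 only, 121 bases before the start site, against 12.4% of all 32851 windows in the table. The Gsta3 window lies at chr1:21240335-21240634 on the plus strand, with the match in capitals.
Gsta3 promoter: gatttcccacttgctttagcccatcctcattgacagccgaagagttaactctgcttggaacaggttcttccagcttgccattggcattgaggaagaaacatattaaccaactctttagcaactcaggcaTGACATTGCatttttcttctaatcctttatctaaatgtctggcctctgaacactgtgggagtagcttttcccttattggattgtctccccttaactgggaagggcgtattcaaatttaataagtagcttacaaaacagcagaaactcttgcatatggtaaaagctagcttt
A match is a description of the letters and not of binding, and elements farther from the start were not searched.

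The deposited log2 values are centred gene by gene, with the median of the 6 libraries of a sex set to 0, so levels cannot be compared between genes or between the sexes. Relative depth spanned 1.34-fold among the female and 1.92-fold among the male libraries. Reads could be recovered from the steps of the values for Gsta3 and Nqo1 in the females and for Nqo1 and Gsto1 in the males. These are given as normalised reads, that is reads times the scaling factor of the library. Where reads are given without the word normalised, they are before this scaling and do not compare libraries exactly. For the other members the number of reads behind a value is unknown, and so is the precision it gives. Hoxa11, one of the targeted genes, stood at -2.75 and -3.12 log2 units relative to WT in the Hoxa-null pair of uteri and at -2.29 and -3.20 in the matching vasa deferentia. The other targeted Hoxa genes differed less. Hoxa10 stood at -1.06 and -0.41 in these uteri and at -0.80 and -0.88 in these vasa deferentia. Hoxa9 stood at -0.34 and 0.26, and at 0.61 and 0.33. Hoxd11 stood at -0.60 and -1.58 in the Hoxd-null pair of uteri, but at -0.74 and -1.35 in the Hoxa-null pair as well, so its level does not mark the uteri labelled Hoxd-null. In the vasa deferentia it stood at -2.47 and -1.18 in the Hoxd-null and -0.88 and -1.45 in the Hoxa-null pair. Hoxd10 stood at 0.57 and 0.26 in the Hoxd-null pair of uteri and at -0.27 and 0.49 in the matching vasa deferentia. Hoxd9 stood at -0.01 and -0.25, and at -1.28 and -1.20. Whether these alleles leave a transcript is not said in the labels. Per the file headers, the WT and Hoxa-null uterus shared lane 1 of a run with the WT vas deferens, the other 3 uteri and 3 of the mutant vasa deferentia shared lane 2, and separate lanes of another run held the oviduct, the vas deferens of the compound Hoxd-null mice and the epididymis.

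Among the alpha class, Gsta1 and Gsta2 were the members furthest apart between uteri, and the split followed Hoxa9,10,11. The library values of Gsta1 (Gene ID 14857, chromosome 9, start 78078476, mm9), a transferase that also reduces lipid hydroperoxides, were -1.55 in WT, 2.02 in the Hoxa-null, -1.13 in the Hoxd-null, 2.18 in the compound Hoxa-null and -1.32 in the uterus of compound Hoxd-null mice. Both uteri without Hoxa9,10,11 were high and the other 3 were low, with a gap of 3.15 log2 units between the nearest libraries of the groups. Against WT, Gsta1 was 11.9-fold higher in the Hoxa-null and 13.2-fold higher in the compound Hoxa-null uterus. Gsta2 (Gene ID 14858, chromosome 9, start 78178827), its near copy, stood at -1.06 in WT, 1.32 in the Hoxa-null, -0.81 in the Hoxd-null, 2.39 in the compound Hoxa-null and -0.95 in the uterus of compound Hoxd-null mice. The groups again did not overlap, with a gap of 2.13 log2 units, and the folds over WT were 5.20 and 11.0. Gm10639, a neighbouring near copy, was higher than WT by 2.15 and 3.01 log2 units in the same libraries and within 0.18 in the Hoxd-null uteri. Gm3776 reached at most 4.52 normalised reads in any female library. The deposited annotation gives Gm3776 the same chromosome and start as Gsta1, so the 2 entries may not be separate loci there. The sum of these copies could not be formed without their levels, so how the difference is divided among them cannot be told from these values.

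Gsta3 (Gene ID 14859, chromosome 1, start 21230670), an alpha transferase that in the mouse is highly active towards aflatoxin epoxide, has almost no shared words, and its reads could be counted. It had 76.6 normalised reads in the WT, 137 in the Hoxa-null, 45.5 in the Hoxd-null, 290 in the compound Hoxa-null and 70.4 in the uterus of compound Hoxd-null mice. The compound Hoxa-null library was the highest of the 5 and the Hoxd-null library the lowest. The fold over WT was 3.78 in the compound Hoxa-null uterus (95% exact binomial interval 2.90 to 4.97, counting error only), 1.79 in the Hoxa-null (1.33 to 2.41) and 0.594 in the Hoxd-null uterus (0.389 to 0.892). Such an interval covers the sampling of reads and not the difference between animals. Gsta4 (Gene ID 14860, chromosome 9, start 78039839), which conjugates the lipid peroxidation product 4-hydroxynonenal, differed less. Relative to WT it stood at 0.97 and 1.05 log2 units in the Hoxa-null pair and at 0.23 and -0.18 in the Hoxd-null pair. Both libraries without Hoxa9,10,11 were above the other 3, with a gap of 0.73, under 2-fold. The share of all genes in this order was not counted, so nothing is read from the order.

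**Figure D2:**
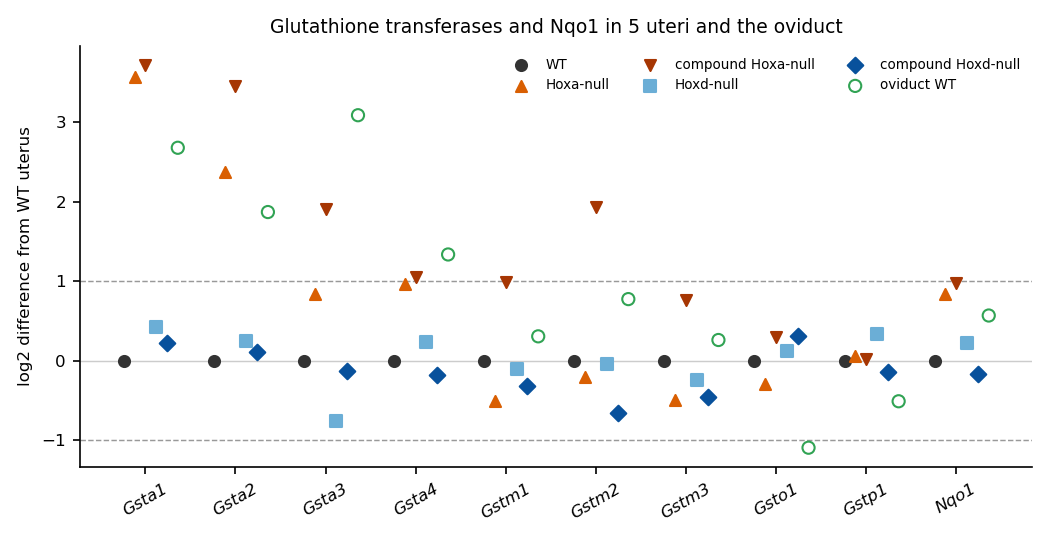
Points give the log2 difference of each member from the WT uterus in the 4 mutant uteri and the WT oviduct, 1 library each, with dashed lines at 2-fold. Gsta1 and Gsta2 lie far above the lines in both uteri without Hoxa9,10,11 (3.57 and 3.73, 2.38 and 3.46) and near 0 in the other 2 mutants.

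Among the mu members, only Gstm2 was at least 2-fold from WT, and only in the compound Hoxa-null uterus. Gstm2 (Gene ID 14863, chromosome 3, start 107784620), a mu transferase expressed in muscle among other tissues, had library values of 0.02 in WT, -0.18 in the Hoxa-null, -0.02 in the Hoxd-null, 1.95 in the compound Hoxa-null and -0.63 in the uterus of compound Hoxd-null mice. Only the compound Hoxa-null library stood apart, 3.82-fold above WT and 1.98 to 2.59 log2 units above the Hoxd-null pair, which shared its lane. Gstm1 (Gene ID 14862, chromosome 3, start 107815175), the mu transferase prominent in liver, stood at -0.50 and 0.998 log2 units relative to WT in the Hoxa-null pair and at -0.10 and -0.31 in the Hoxd-null pair. Gstm3 (Gene ID 14864, chromosome 3, start 107766614), their neighbour, stood at -0.49 and 0.77, and at -0.25 and -0.46. For all 3 mu members the compound Hoxa-null uterus was the highest of the 5, and for Gstm1 and Gstm3 the Hoxa-null uterus was the lowest. Smooth muscle markers also had their highest median in the compound Hoxa-null uterus, 0.65 log2 units above WT with 3 of 10 at least 2-fold higher. Fibroblast and stroma markers did too, at 1.03 with 5 of 10 higher, and the part of either list in the mu values was not tested.

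The omega and pi enzymes differed little between uteri. Gsto1 (Gene ID 14873, chromosome 19, start 47929479), an omega enzyme that works more as a thiol transferase, ranged over 0.61 log2 units across the 5 uteri. Gstp1 (Gene ID 14870, chromosome 19, start 4035411), the pi enzyme of many epithelia, ranged over 0.47, and its near copy Gstp2 stayed within 0.26 of WT. Nqo1 (Gene ID 18104, chromosome 8, start 109912125) had 153 normalised reads in the WT, 275 in the Hoxa-null, 179 in the Hoxd-null, 302 in the compound Hoxa-null and 137 in the uterus of compound Hoxd-null mice. Both uteri without Hoxa9,10,11 were higher than the other 3, by folds over WT of 1.80 (95% interval 1.47 to 2.23, counting error only) and 1.98 (1.62 to 2.44), just under 2-fold. The gap to the nearest other uterus was 0.63 log2 units, and the share of all genes in this order was not counted. In the Hoxd-null pair the folds were 1.17 (0.923 to 1.49) and 0.894 (0.705 to 1.13), intervals that include no difference.

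Counted at 2-fold, 2 of 10 members (Gsta1 and Gsta2) differed from WT in the single Hoxa-null uterus, where 13.3% of all 16743 measured genes did, and 5 (Gsta1, Gsta2, Gsta3, Gsta4 and Gstm2) in the compound Hoxa-null uterus, where 15.3% did. All of these were higher, and since uterine values chose the members nothing is read from the counts or from the member medians that follow. The median of the members was 0.45 and 1.02 log2 units, against 0.00024 and -0.0041 over all measured genes. In the Hoxd-null pair of uteri 0 of 10 differed from WT by 2-fold, where 12.1% and 14.3% of measured genes did, with member medians of 0.17 and -0.15. Gsta1 and Gsta2 separated the Hoxa-null pair from the other 3 uteri by 2-fold, as 2.07% of genes did in either direction. For the Hoxd-null pair the count was 0, against 1.25% of genes. Within lane 1 alone Gsta1 and Gsta2 were 3.57 and 2.38 log2 units higher in the Hoxa-null than in the WT uterus. Within lane 2 they were 3.30 and 3.20 higher in the compound Hoxa-null than in the Hoxd-null uterus, and 3.49 and 3.34 higher than in the compound Hoxd-null uterus.

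Set against the Hoxa-null uterus, the compound Hoxa-null uterus, which lacks 1 further copy of Hoxd9,10,11, had 5 members that differed by 2-fold, all higher, where 11.6% of measured genes differed. These were Gsta2 at 1.08, Gsta3 at 1.08, Gstm1 at 1.50, Gstm2 at 2.13 and Gstm3 at 1.26 log2 units. Gsta1 and Nqo1 differed by only 0.15 and 0.13 between the same libraries, which were sequenced in different lanes. Between the compound Hoxd-null and Hoxd-null uterus 0 of 10 differed by 2-fold, and 9.72% of measured genes did. Since uterine values chose the members, nothing is read from these counts either.

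Cell makeup differed between the same uteri. Of 14 markers of stratified squamous epithelium, 12 were at least 2-fold above WT in the single Hoxa-null uterus, with a median of 5.23 log2 units, and 11 in its compound partner, with a median of 3.04. The basal keratin Krt5 stood at 7.30 and 5.55. The compound Hoxd-null uterus had 12 of the 14 higher too, with a median of 1.77 and Krt5 at 3.23, and Gsta1 and Gsta2 stood at 0.23 and 0.11 in that library. In the single Hoxd-null uterus 3 of the 14 were higher and 2 lower, with a median of 0.21, and Gsta1 and Gsta2 stood at 0.42 and 0.25. Fibroblast and stroma markers had medians of 0.59 and 1.03 in the Hoxa-null pair, with 3 and 5 of 10 at least 2-fold higher, and of 0.83 and 0.55 in the Hoxd-null pair, with 4 and 0 of 10. Of 12 markers of simple epithelium 0 differed by 2-fold in any mutant uterus, with medians between -0.23 and 0.44. Liver cell markers, a source rich in alpha transferases, had 3 of 8 measured. In the Hoxa-null pair 0 of them were higher by 2-fold and 1 lower in each library. Of 10 measured macrophage markers, 2 were at least 2-fold higher in each uterus of the Hoxa-null pair and 9 in each of the Hoxd-null pair. Their medians were 0.10 and 0.29, and 1.20 and 1.42. Of 10 adipocyte markers, 6 and 1 were at least 2-fold lower in the Hoxa-null pair and 2 and 7 in the Hoxd-null pair. Summed marker levels could not be formed from centred values, and the part of cell makeup in the member values was not tested. In bulk tissue, fewer cells of a type and less RNA per cell cannot be told apart.

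In the vas deferens the same 2 near copies were highest in a different mutant. Gsta1 had library values of -0.03 in WT, 0.06 in the Hoxa-null, 1.13 in the Hoxd-null, -0.28 in the compound Hoxa-null and 0.03 in the compound Hoxd-null vas deferens, so the Hoxd-null library stood alone, 2.23-fold above WT. Gsta2 stood at 0.17, -0.14, 1.05, -0.42 and 0.13 in the same order, 1.85-fold above WT in the Hoxd-null library. Gm10639 and Gm3776 were above WT in that library too, Gm3776 by 2.92 log2 units, and Gm3776 was also above WT in the Hoxa-null pair, by 2.03 and 1.67. Gsta1 in the compound Hoxd-null vas deferens, which lacks Hoxd9,10,11 as well, was 1.10 log2 units below the Hoxd-null library, so the difference was not shared by the 2 libraries without these genes. These 2 libraries were sequenced in different runs, so run and genotype cannot be told apart between them. No other vas deferens shared the lane of the WT vas deferens, so lane and genotype cannot be told apart for the comparisons with WT. Within lane 2 Gsta1 was 1.07 and 1.41 log2 units higher in the Hoxd-null vas deferens than in the 2 of the Hoxa-null pair.

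Gsta4 stood at -0.33 and -1.04 log2 units relative to WT in the Hoxa-null pair and at 0.43 and -0.16 in the Hoxd-null pair, so the compound Hoxa-null library was the lowest. Gsta3 was above WT in all 4 mutants, by 0.50 to 0.85. The mu members ranged over 0.47 to 0.69 log2 units across the 5 vasa deferentia, with the Hoxa-null library the highest for each. For these members the high compound Hoxa-null uterus has no counterpart among the vasa deferentia. Gstp1 ranged over 0.96, with the Hoxd-null library highest and the compound Hoxd-null library lowest. Gsto1 had 195 normalised reads in WT, 161 in the Hoxa-null, 165 in the Hoxd-null, 149 in the compound Hoxa-null and 127 in the compound Hoxd-null vas deferens, with WT the highest. Its fold over WT was 0.651 (95% interval 0.512 to 0.823, counting error only) in the compound Hoxd-null and 0.763 (0.627 to 0.929) in the compound Hoxa-null library, while the intervals of the single mutants, 0.682 to 1.01 and 0.698 to 1.03, included no difference.

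Nqo1 had the widest range of the members across the vasa deferentia, 1.53 log2 units. It had 366 normalised reads in WT, 191 in the Hoxa-null, 497 in the Hoxd-null, 172 in the compound Hoxa-null and 240 in the compound Hoxd-null vas deferens. Both libraries without Hoxa9,10,11 were the lowest, at 0.523 of WT (95% interval 0.444 to 0.617, counting error only) and 0.470 (0.396 to 0.555), and the Hoxd-null library was the highest, at 1.36 of WT (1.20 to 1.54). In the uterus the direction in the Hoxa-null pair was the opposite. The gap to the nearest other vas deferens, the compound Hoxd-null, was 0.33 log2 units.

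**Figure D3:**
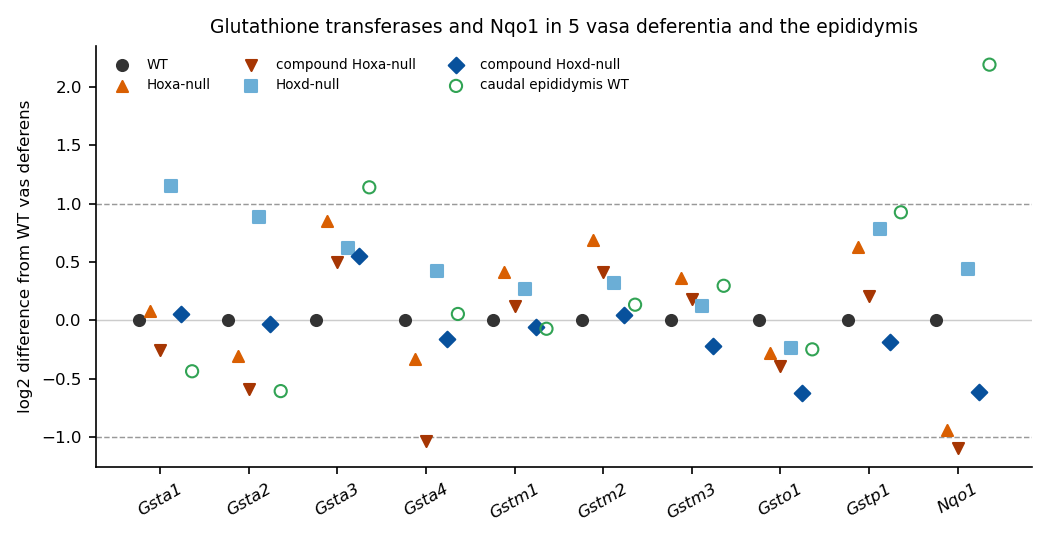
Points give the log2 difference of each member from the WT vas deferens in the 4 mutant vasa deferentia and the WT caudal epididymis, 1 library each, with dashed lines at 2-fold. The vasa deferentia lie mostly within the lines, with Gsta1 of the Hoxd-null library above (1.15) and Gsta4 and Nqo1 of the compound Hoxa-null library below (-1.04 and -1.09), while Nqo1 of the epididymis stands at 2.19.

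At 2-fold, 0 of 10 members differed from WT in the single Hoxa-null vas deferens, 1 (Gsta1, higher) in the single Hoxd-null, 2 (Gsta4 and Nqo1, lower) in the compound Hoxa-null and 0 in the compound Hoxd-null vas deferens. The shares of all 16880 measured genes past 2-fold were 19.3%, 8.32%, 22.3% and 13% in the same order, so the member counts are near the background. 0 members separated either pair by 2-fold, where 6.33% of genes separated the Hoxa-null pair and 0.782% the Hoxd-null pair. The member medians were 0.22, 0.43, -0.07 and -0.11 log2 units, again in that order, and all medians over measured genes lay between -0.0041 and 0.015. Against the Hoxd-null library, Gsta1 and Nqo1 of the compound Hoxd-null library, which was sequenced in another run, were lower by 2-fold, where 11.9% of genes differed. Between the compound Hoxa-null and Hoxa-null libraries 0 of 10 members and 9.45% of genes differed. Smooth muscle markers were lower in the libraries without Hoxa9,10,11, 5 and 7 of 10 at least 2-fold below WT with medians of -1.03 and -1.31. All 7 measured markers of ciliated cells were higher in the compound Hoxa-null library, with a median of 2.45, and 7 and 8 of 10 adipocyte markers were higher in the Hoxa-null pair, and 8 in the compound Hoxd-null library. Their part in the values of Gsta4 and Nqo1 was not tested.

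**Figure D4:**
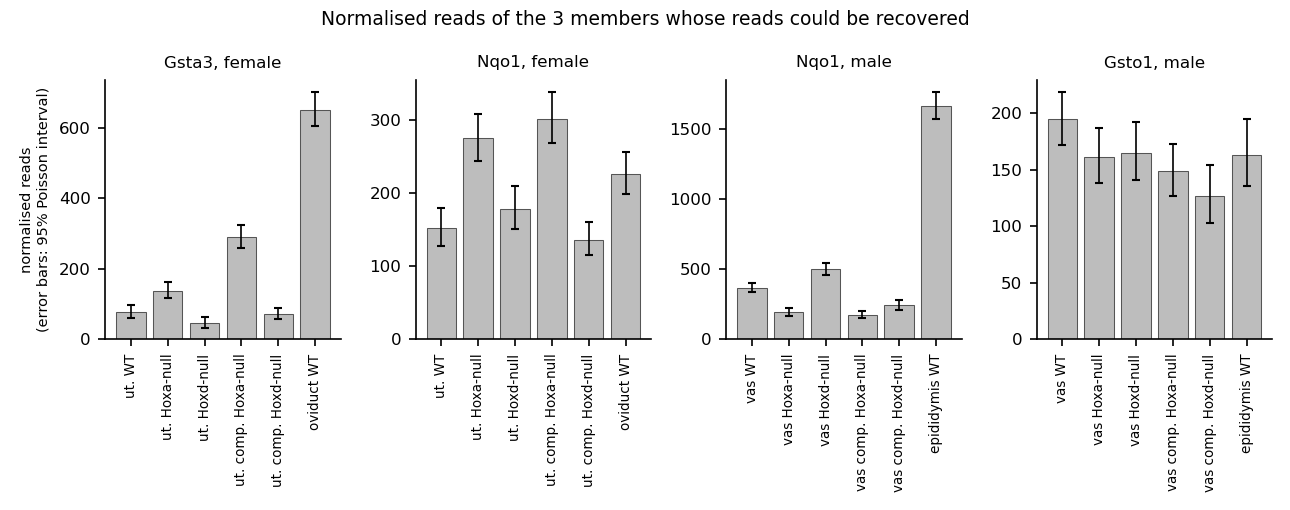
Bars give normalised reads per library for Gsta3 and Nqo1 in the female and Nqo1 and Gsto1 in the male set, on linear axes from 0, with 95% Poisson intervals for counting error as error bars. Nqo1 was higher in both uteri without Hoxa9,10,11 (275 and 302 against 153 in WT) and lower in both matching vasa deferentia (191 and 172 against 366), and the epididymis reached 1663.

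The WT oviduct and the WT epididymis show how far neighbouring segments differ. Against the WT uterus, Gsta1 to Gsta4 were higher in the oviduct by 2.68, 1.87, 3.09 and 1.34 log2 units, and Gsto1 was lower, at -1.09. These 5 of 10 members compare with 28.2% of measured genes past 2-fold. Gsta3 reached 651 normalised reads in the oviduct, 8.49-fold over the WT uterus (95% interval 6.63 to 11.0, counting error only) and above all 5 uteri, whereas Gsta1 and Gsta2 of the oviduct lay below both uteri without Hoxa9,10,11. Nqo1 stood at 226 normalised reads, between the WT and the Hoxa-null uterus, and the mu members at 0.26 to 0.78 log2 units above WT. All 7 measured markers of ciliated cells, which line the oviduct, were at least 3.80 log2 units higher in the oviduct. In the Hoxa-null pair of uteri their medians were -0.85 and -1.14, with 1 of 7 higher by 2-fold in each and 3 and 4 lower. Against the WT vas deferens, 2 members were higher in the caudal epididymis, Nqo1 at 1663 normalised reads, 4.55-fold over the WT vas deferens (4.10 to 5.05), and Gsta3 by 1.14 log2 units, where 28.8% of measured genes differed. Gsta1 and Gsta2 stood at -0.44 and -0.61 and Gstp1 at 0.93. The comparisons of the oviduct and the epididymis cross sequencing runs, so run and tissue cannot be told apart.

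Genes of the same pathways were counted against the 13.3% and 15.3% of all measured genes past 2-fold in the Hoxa-null pair of uteri. Of 31 measured other genes of the Nrf2 response, 0 were at least 2-fold higher and 1 and 3 lower than WT in the Hoxa-null pair, with medians of 0.02 and -0.11 log2 units. Nfe2l2 itself stood at 0.02 and 0.13 and Keap1 at 0.06 and 0.08. Gclc and Gclm, the catalytic and modifier subunits of the rate-limiting enzyme of glutathione synthesis, stood at 0.05 and 0.50, and -0.01 and -0.04. The lower genes included Me1, the cytosolic malic enzyme, at -0.43 and -1.49, and Abcc3, an exporter of conjugates, at -1.36 and -1.46, and Cbr3, a carbonyl reductase, at -0.36 and -1.22, while Akr1b8, an aldose reductase family member, stood at 0.08 and -0.11. In the 2 Hoxd-null uteri 0 of the 31 differed by 2-fold. In the 4 mutant vasa deferentia 0 were higher and 1 and 1 lower in the Hoxa-null pair and 0 and 1 in the Hoxd-null pair, with Akr1b8 at -1.59 and -1.91 in the Hoxa-null pair. Nfe2l2 stood at 0.20 to 0.29 in these 4 libraries and Keap1 at -0.39 to -0.02.

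Of 19 other glutathione transferases, 0 and 1 were at least 2-fold higher and 4 and 3 lower in the Hoxa-null pair of uteri, that is 4 of 19 past 2-fold in each. Gstm7, a mu gene near the members on chromosome 3, stood at -1.83 and -0.49, and Gstt4, a theta gene, at -1.02 and -2.94. Mgst2, a microsomal transferase, stood at -2.67 and -0.79, on 2 and 7 reads against 11.0 in WT before scaling. In the vas deferens 5 and 6 of the 19 were higher and 2 and 1 lower in the Hoxa-null pair, beside 19.3% and 22.3% of all measured genes past 2-fold, with Gstm7 at 3.08 and 2.90, Gstt4 at 0.90 and 4.45 and Gsto2, the second omega gene, at -2.42 and -0.55. Gstm7 stood at 3.07 and Gstt4 at 5.10 in the epididymis. Of the 23 genes of glutathione synthesis, recycling and breakdown, 1 was higher in each uterus of the Hoxa-null pair, Cbs, which feeds cysteine synthesis, at 1.61 and 2.29, and Ggt1, a glutamyl transferase that breaks glutathione down outside the cell, stood at -0.38 and -1.36. Ggt6 and Dpep1 differed in the Hoxd-null pair, at -1.90 and -2.32, and 1.22 and 1.01.

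Among 32 measured other detoxification enzymes, 5 stood 2-fold or more above WT and 4 as far below in the single mutant of the Hoxa-null pair of uteri, with 7 and 2 in the compound mutant. Aldh3a1, which oxidises aldehydes and is abundant in cornea, stood at 7.0 and 6.7 log2 units relative to WT in these libraries. It had 149 and 112 reads there against 1 in WT before scaling. Of 7 measured genes of the aryl hydrocarbon receptor pathway, which also induces Nqo1 and alpha transferases, Cyp1a1 stood at 1.58 and -0.38 and Cyp1b1 at -0.95 and 1.90 in this pair. Aldh3a1 was not counted in this list, and the part of the pathway in the member values was not tested. The receptor gene Ahr stood at -0.11 and -0.06 and its repressor Ahrr at 0.09 and 1.20. Of 11 genes of superoxide and peroxide removal, Sod3, the extracellular superoxide dismutase, was higher in the Hoxa-null pair, with 626 and 650 reads against 134 in WT, at 2.01 and 2.15 log2 units, and 0 others passed 2-fold in these uteri. In the vas deferens Cyp1a1 was below WT in all 4 mutants, at -2.24 to -3.12.

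**Figure D5:**
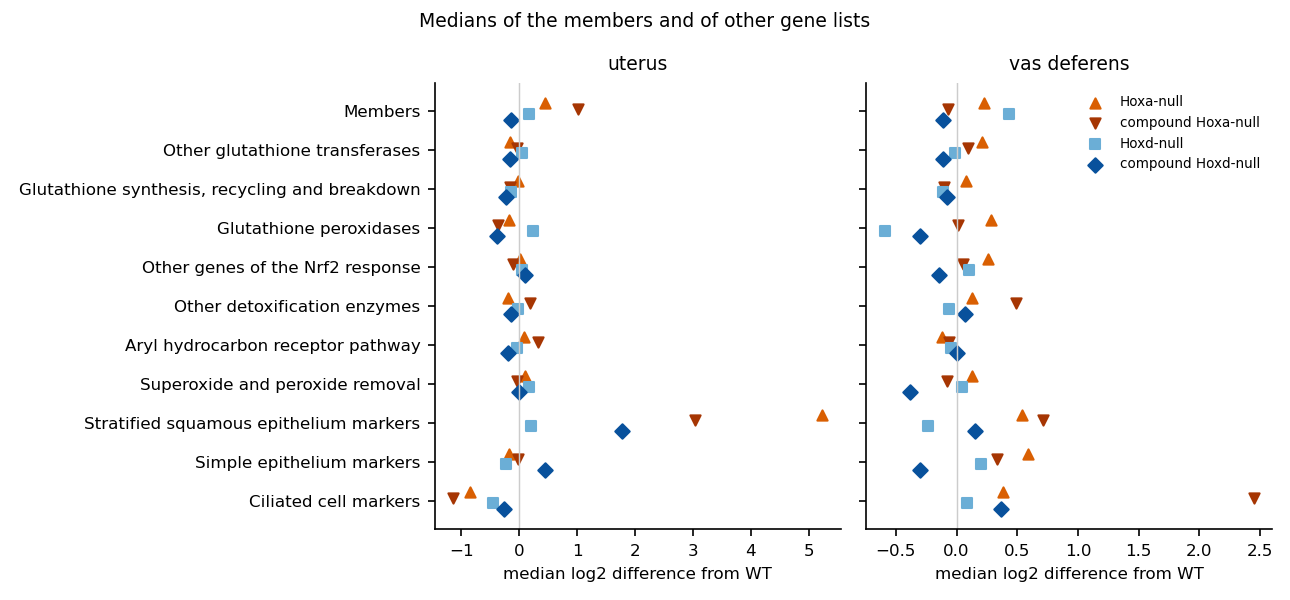
Points give the median log2 difference from WT of the 10 members, of 7 lists of related enzymes and of 3 marker lists, for the 4 mutants in the uterus (left) and the vas deferens (right), 1 library each, on linear axes of different length. In the uterus the members stand at 0.45 and 1.02 in the Hoxa-null pair, the other genes of the Nrf2 response at 0.02 and -0.11 and squamous markers at 5.23 and 3.04. The members were selected on differences between uteri, so nothing is read from how their uterine medians compare with the lists.

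The genes whose pattern was most like that of Gsta1 over the 6 female libraries were looked up among 16742 others by the root mean square difference of the log2 values centred on their mean. Gsta2 came first at 0.43 log2 units and Gm10639 second at 0.47, both near copies. They were followed by Wfdc6a, which encodes a WAP-domain protein, at 0.49, and Slitrk2, which encodes a neuronal membrane protein, at 0.52. Slitrk2 reached only 24.2 normalised reads. Of the other members, Gsta3 ranked 251, Gsta4 269, Nqo1 440 and Gstm2 558. For Nqo1 over the 6 male libraries the nearest of 16879 genes were Zfp831, a zinc finger gene, at 0.22, Col12a1, a collagen gene, at 0.26, the ion channel genes Accn1 at 0.28 and Nalcn at 0.30, and Mgat3, a glycosyltransferase gene, at 0.31. Its nearest fellow member was Gsta4, at rank 1036. These 6 values share libraries and depth, and a like pattern over 6 libraries is a description.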

How the data were processed

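RNA sequencing of 12 pooled libraries from the mouse female and male reproductive tracts was used. Per the labels' protocols, RNA came from fresh tissue (Qiagen RNeasy) and libraries from Illumina TruSeq kits, and the submitters' processing notes name TopHat and mm9. How reads were counted and scaled is not given in the sources used here. The deposited values are log2 values, centred by the authors on a median of 0 per gene over the 6 libraries of a sex. The steps between low values showed that values are reads, in steps of 1/50 of a read, scaled by a factor for each library with a floor of 1, and this recovered the reads of 17.2% of the measured female and 21.6% of the measured male genes (Python 3.11.15, numpy 2.4.6, pandas 2.3.3 and scipy 1.17.1). The recovery was tested on simulated data. In the compound Hoxd-null vas deferens and the epididymis, 75.7% and 64.6% of the low values of known level were whole multiples, within 0.001 of a read, of 1.29 and 1.35, and their normalised reads rest on these steps. The plan had assumed linear values or counts, and since the values were already log2 no pseudocount was added.

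Library shifts of at most 0.0094 log2 units (female) and 0.010 (male) were removed. A gene counted as measured unless its value was the same in all libraries or its highest library was read as under 20 normalised reads. A difference of at least 2-fold was counted, and a pair was separated when both its libraries lay 2-fold above or below the other 3 of the tissue. Intervals are 95% exact binomial (Clopper-Pearson) for folds and Poisson for reads, on reads rounded to whole numbers, and cover counting error only. With 1 library per group no test was made. The members, the gene lists and the naming rules were chosen with earlier results of these data known. All 10 members were named, up to 4 genes of each list with the largest difference from WT in any mutant, Nfe2l2, Keap1, Gclc and Gclm, and the 5 genes most like the member with the widest range in each tissue, of which 1 is not reported here. Shared words were taken from GENCODE M21 transcripts and open reading frames from the same, promoters from a RefSeq table (GRCm38.p6), and no coordinates were moved between builds.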

Additional observations from a re-analysis of the deposited data

Results flagged for a closer look

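Nqo1 differed from WT in opposite directions in the 2 tissues. In the 2 uteri without Hoxa9,10,11 it stood at 0.85 (Hoxa-null) and 0.98 (compound Hoxa-null) log2 units relative to WT, and in the matching vasa deferentia at -0.94 and -1.09. All 4 libraries differed from their WT by at least 0.5 log2 units, which was the size asked for. The difference between the tissues was not tested, since each value is 1 pooled library against 1 WT library, and the WT vas deferens was sequenced in another lane than these mutants.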

How the results depend on the processing

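Each count was repeated with the deposited values unshifted and with each library centred on the median of all measured genes, and 13 of 14 counts stayed the same. Counts were also repeated without a minimum on low values and with a minimum of 100 normalised reads, but neither setting could change a member count. Members whose reads are unknown pass any minimum, and those with recovered reads all exceeded 100 normalised reads in their highest library. The count of the compound Hoxa-null uterus went from 5 to 6 with the unshifted values and with the centring, where Gstm1, at 0.998 log2 units as reported, passed 2-fold. With the mean of the 3 libraries without 2 mutant copies of the cluster as reference, the count rose from 0 to 3 in the Hoxd-null uterus (Gsta1, Gsta2 and Gsta3, lower), from 0 to 4 in the compound Hoxd-null uterus (also Gstm2) and from 1 to 3 in the Hoxd-null vas deferens (Gsta1, Gsta2 and Nqo1, higher). It also went from 2 to 3 in the Hoxa-null uterus (Gsta3 added) and from 5 to 7 in the compound Hoxa-null uterus (Gstm1 and Gstm3 added). For the Hoxd-null uteri, 2 of the 3 reference uteri are without Hoxa9,10,11 and high in Gsta1, so Gsta1 of the Hoxd-null uterus turned from 0.42 to -2.01. Leaving out 1 library at a time gave 2 to 4 members separating the Hoxa-null uteri, 4 without the Hoxa-null library (Gsta3 and Gstm2 added), 0 to 2 for the Hoxd-null uteri, 2 without WT (Gsta1 and Gsta2, lower), 0 to 1 for the Hoxd-null vasa deferentia, 1 without the compound Hoxd-null library (Gsta1, higher), and 0 throughout for the Hoxa-null vasa deferentia. A comparison without WT sets one cluster against the other and cannot separate them.

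No paired analysis was possible because each group holds 1 pooled library. The pseudocount alternative was not run because the values were already log2. Depth limits Gsta3, with 38 reads in the Hoxd-null uterus. For Gsta1, Gsta2, Gsta4, the mu genes and Gstp1 the reads are unknown. Near-copy genes can trade reads, and the pooled animals give no measure of spread.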

Other observations

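Of 8 measured glutathione peroxidases, 3 stood at least 2-fold above WT in each vas deferens of the Hoxa-null pair, where 19.3% and 22.3% of all measured genes differed. In the compound Hoxd-null library 2 did, where 13% of measured genes differed. In the single Hoxd-null library 3 of the 8 were at least 2-fold lower, with a median of -0.59, where 8.32% of measured genes differed. Gpx5, the secreted peroxidase of the epididymis, stood at 5.02 and 4.32 log2 units relative to WT in the Hoxa-null pair. It stood at -0.58 and 3.52 in the Hoxd-null pair and at 4.62 in the epididymis. The WT and Hoxd-null libraries held only 29 and 14 reads of Gpx5. Gpx3, the plasma peroxidase, stood at 2.15 and 2.19 log2 units in the Hoxa-null pair and at 2.59 in the epididymis, and Gpx6 at 2.17 and 3.06 in the Hoxa-null pair and -2.67 in the single Hoxd-null library, where Gpx2 stood at -1.16. Of 9 measured markers of epididymal principal and clear cells, 5 were at least 2-fold higher in each library of the Hoxa-null pair, with medians of 1.79 and 1.62. In the same libraries 1 and 2 of the 9 were as far below WT. In the Hoxd-null pair 1 and 4 were higher and 0 lower. Ggt1 stood at 1.95 and 1.80 log2 units relative to WT in the Hoxa-null pair, and the sulfotransferase gene Sult1c2 at 2.61 and 3.45. Aldh3a1 went the other way, at -2.59 and -3.02 in the Hoxa-null pair. It stood at -2.57 and -1.65 in the Hoxd-null pair and at 1.50 in the epididymis.

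In the uterus Gpx2, the epithelial peroxidase, had 963 reads in WT before scaling. It stood at -1.74 and -2.11 log2 units relative to WT in the Hoxa-null pair. In the Hoxd-null pair it stood at -0.90 and -2.01, so WT was the highest of the 5 uteri. Ugt2b34, a glucuronosyltransferase, stood at -3.42 log2 units relative to WT in the compound Hoxd-null uterus, and Sult1d1 stood at -3.46 there. Both were low in the oviduct too, at -4.04 and -3.36 log2 units relative to the WT uterus.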
